A study of Mus musculus with 8 samples.

Results

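Feedback genes of cAMP and CREB signaling, with a CREB coactivator, were followed through the 4 treatment groups of mouse peritoneal macrophages. They are Crem, Sik1, Pde4b, Pde4d, Rgs1, Rgs2, Per1 and Crtc2, taken from the deposited gene table by their symbols, 8 of the 55801 genes it lists. The cells came from male C57BL/6 mice of 6 to 8 weeks, harvested by flushing the abdominal cavity 72 hours after thioglycollate broth was injected there. All groups thus held elicited macrophages of wild-type mice, enriched by the harvest and not described as sorted. The NC group received the vehicle DMSO alone. The LPS group received vehicle and then LPS, the endotoxin of Gram-negative bacteria, at 100 ng/ml for 4 h. The C498 group received C498 alone at 15 μM, and the C498+LPS group, labelled C498_LPS, received C498 for 0.5 h before the same LPS challenge. C498 is a small molecule that the study found in a screen for inhibitors of JAK/STAT and NFκB reporters. Each group had 2 samples, and no label says that they came from separate mice or cultures, so p-values measure only the spread between these samples.

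In this pathway, receptors coupled to stimulatory G proteins turn on adenylyl cyclases, and the cAMP made by them activates protein kinase A (PKA). PKA phosphorylates the transcription factor CREB, while coactivators of the CRTC family enter the nucleus once the salt-inducible kinases (SIKs) that hold them in the cytoplasm are switched off. CREB and CRTC then induce genes that damp the same signal: a short repressor made from Crem, the kinase Sik1, phosphodiesterases that break down cAMP, and RGS proteins that shorten G protein signals. In macrophages, cAMP is known to restrain the release of TNF and to favour that of IL-10.

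Levels are TPM, a share of all transcripts that accounts for gene length and has a fixed sum per sample, so levels of different genes can be set side by side while the read depth behind them is unknown. Between 17528 and 18975 genes were above 0 in a sample. Pearson's r of log2(TPM + 1) across the 12189 tested genes was 0.962 to 0.981 between the samples of a group, a value across genes, which are not independent replicates. Tested genes had a mean TPM of at least 1, and 7 of the 8 genes passed, all 7 at 0.92 TPM or more in every sample. Pde4d, with a mean of 0.70 TPM, was not tested. A gene was called when limma, fitted over all tested genes and all 8 samples on log2(TPM + 1), put its change at 2-fold or more with an adjusted p (Benjamini-Hochberg) not above 0.05. A fold below is the ratio of mean TPM levels and a log2 change is the fitted one, which adding 1 draws towards 0 for genes at low levels.

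All 8 macrophage markers looked up were present, from Mertk at 12.4 to 23.7 TPM up to Lyz2 at 7831 to 15989 TPM. Markers of other cells moved with C498. The summed level of 4 fibroblast markers was 132 to 178 TPM in NC, 159 to 183 TPM in LPS, 574 to 672 TPM in C498 and 554 to 818 TPM in C498+LPS, and 4 of the 4 were called higher in C498 vs NC. The 4 mesothelial markers summed to at most 4.65 TPM without C498 and to 12.7 to 21.4 TPM with it, with 2 of the 3 tested markers called higher in C498 vs NC. The macrophage sum was 20100 to 20600 TPM in NC, 17900 to 18500 TPM in LPS, 15900 to 16100 TPM in C498 and 12400 to 14200 TPM in C498+LPS, most of it Lyz2. The median log2 change of the 8 was -0.27 in C498 vs NC and -0.63 in C498+LPS vs LPS. In C498 vs NC limma called 0 lower (5 of the 8 had an unadjusted p under 0.05) and 1 higher, Cd14. Its level was 235 and 252 TPM in NC, 1352 and 1250 TPM in LPS, 686 and 663 TPM in C498, and 1797 and 1794 TPM in C498+LPS. In C498+LPS vs LPS limma called 0 of the 8 higher and 0 lower (6 at an unadjusted p under 0.05). Of the lymphoid and mast cell markers, the 5 B cell markers summed to 3.65 and 4.03 TPM in NC, 4.66 and 4.42 TPM in LPS and 7.52 and 6.02 TPM in C498, and the 4 mast cell markers to 7.89 and 8.73 TPM, 8.55 and 8.41 TPM, and 11.9 and 12.3 TPM. C498+LPS replicate 2 stood above replicate 1 in both, at 13.8 against 4.46 TPM and 20.5 against 7.21 TPM, and in the 7 T cell markers, at 7.89 against 3.32 TPM. The T cell sum was 2.97 to 5.57 TPM in the other groups. The 4 eosinophil markers summed to 1.94 and 2.12 TPM in NC, 1.46 TPM in both LPS samples, 0.75 and 0.80 TPM in C498, and 0.60 and 0.92 TPM in C498+LPS. The 6 neutrophil markers summed to 76.2 and 131 TPM in NC, 92.8 and 119 TPM in LPS, 54.7 and 52.0 TPM in C498, and 81.2 and 71.5 TPM in C498+LPS. S100a8 made up nearly all of this signal, while Ngp was listed at 0 in every sample and S100a9 was at 0.86 TPM or less. The part of these shifts in the C498 results below was not tested, and in bulk RNA fewer cells of a type and less RNA per cell cannot be told apart.

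**Figure D1:**
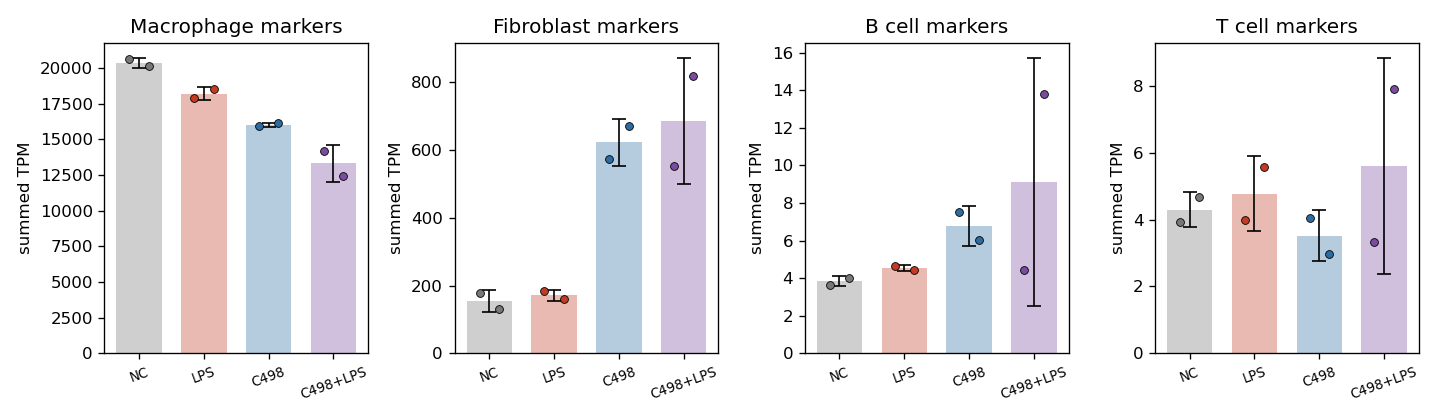
Summed TPM (y axes) of the markers of macrophages, fibroblasts, B cells and T cells in the 4 groups (x axes). Points are samples and bars are mean ± SD (n = 2). The fibroblast sum is at 132 to 183 TPM in the 4 samples without C498 and at 554 to 818 TPM in the 4 samples with it.

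Crtc2 encodes a CREB coactivator that SIKs hold in the cytoplasm. Its level was 29.4 and 25.2 TPM in NC, 35.7 and 30.9 TPM in LPS, 36.7 and 39.3 TPM in C498, and 41.1 and 38.8 TPM in C498+LPS. The NC samples were lowest and the groups lay close together, with the 2 C498 groups overlapping. No comparison reached 2-fold, and the highest ratio among them was 1.39, for C498 over NC (log2 change 0.47, 95% interval 0.17 to 0.76, limma adjusted p = 0.0499).

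Crem (chromosome 18 of GRCm38, 3266048 to 3337748, minus strand) gives rise to CREB-like activators and, from an internal promoter, to the repressor ICER. The table holds 1 value for all these transcripts, so they cannot be told apart. Crem was at 13.9 and 13.2 TPM in NC and at 18.1 and 19.2 TPM in LPS. It stood at 48.3 and 43.7 TPM in C498 and at 36.3 and 39.8 TPM in C498+LPS. The 4 samples with C498 were all above the 4 without it, and the ratio of means was 3.4 for C498 over NC and 2.04 for C498+LPS over LPS. An antisense transcript that overlaps its exons, Gm6225, was at 0.39 TPM or less in every sample, and strand was not stated for the counting.

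Sik1 (chromosome 17, 31844250 to 31855804, minus strand) encodes the salt-inducible kinase that CREB itself induces and that sends CRTC coactivators back to the cytoplasm. It was at 4.12 and 3.18 TPM in NC and fell to 1.55 and 0.92 TPM in LPS. With C498 alone it was at 21.8 TPM in both samples, 5.98-fold above NC. In C498+LPS it was at 6.36 and 7.60 TPM, 5.65-fold above LPS, which put it between C498 and NC. The 4 groups followed each other without overlap in the order C498, C498+LPS, NC and LPS.

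Pde4b and Pde4d encode phosphodiesterases of the class that clears cAMP from leukocytes. Pde4b (chromosome 4, 102087543 to 102607259, plus strand) was at 10.1 and 5.58 TPM in NC, 46.0 and 41.5 TPM in LPS, 17.1 and 17.5 TPM in C498, and 55.2 and 49.5 TPM in C498+LPS. Of the 8 genes it was the one that LPS moved up the most, 5.57-fold over NC. The samples with LPS were above all samples without it, whether C498 was present or not. Pde4d (chromosome 13, 108449948 to 109953461, plus strand) stayed near the floor of the table. It was at 0.74 and 0.47 TPM in NC, 0.29 and 0.15 TPM in LPS, 1.30 and 0.90 TPM in C498, and 0.73 and 1.04 TPM in C498+LPS. The LPS samples were lowest, but C498, C498+LPS and NC overlapped with their neighbours. Without a filter on low values, limma called none of the Pde4d comparisons, with adjusted p from 0.109 to 0.796.

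Rgs1 and Rgs2 encode GTPase-activating proteins that end signals of G protein alpha subunits, and they lie on chromosome 1 at 144242296 to 144249242 and 143999338 to 144004161, both on the minus strand. Rgs1 was the most abundant of the 8 genes in every sample. It was at 72.8 and 68.0 TPM in NC, 172 and 147 TPM in LPS, 464 and 369 TPM in C498, and 248 and 269 TPM in C498+LPS. Either treatment alone raised it, 2.26-fold for LPS and 5.92-fold for C498, and the combination lay between them.

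Rgs2 was at 18.6 and 14.2 TPM in NC and at 1.54 and 2.43 TPM in LPS, 8.26-fold lower. C498 alone took it to 54.7 and 49.8 TPM, 3.19-fold above NC. In C498+LPS it was at 15.9 and 18.8 TPM, a range that overlaps that of NC, and 8.74-fold above LPS. The neighbours Rgs1 and Rgs2 therefore moved in opposite directions with LPS alone and in the same direction with C498 alone.

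Per1 (chromosome 11, 69095217 to 69109960, plus strand) encodes a repressor of the circadian clock that CREB induces within minutes to hours of a cAMP pulse. It was at 7.94 and 4.43 TPM in NC, 2.60 and 2.59 TPM in LPS, 17.0 and 17.1 TPM in C498, and 7.85 and 7.41 TPM in C498+LPS. The order of groups was the same as for Rgs2, with C498 highest, LPS lowest, and C498+LPS and NC overlapping. The NC samples differed from each other by more than the samples of any other group.

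**Figure D2:**
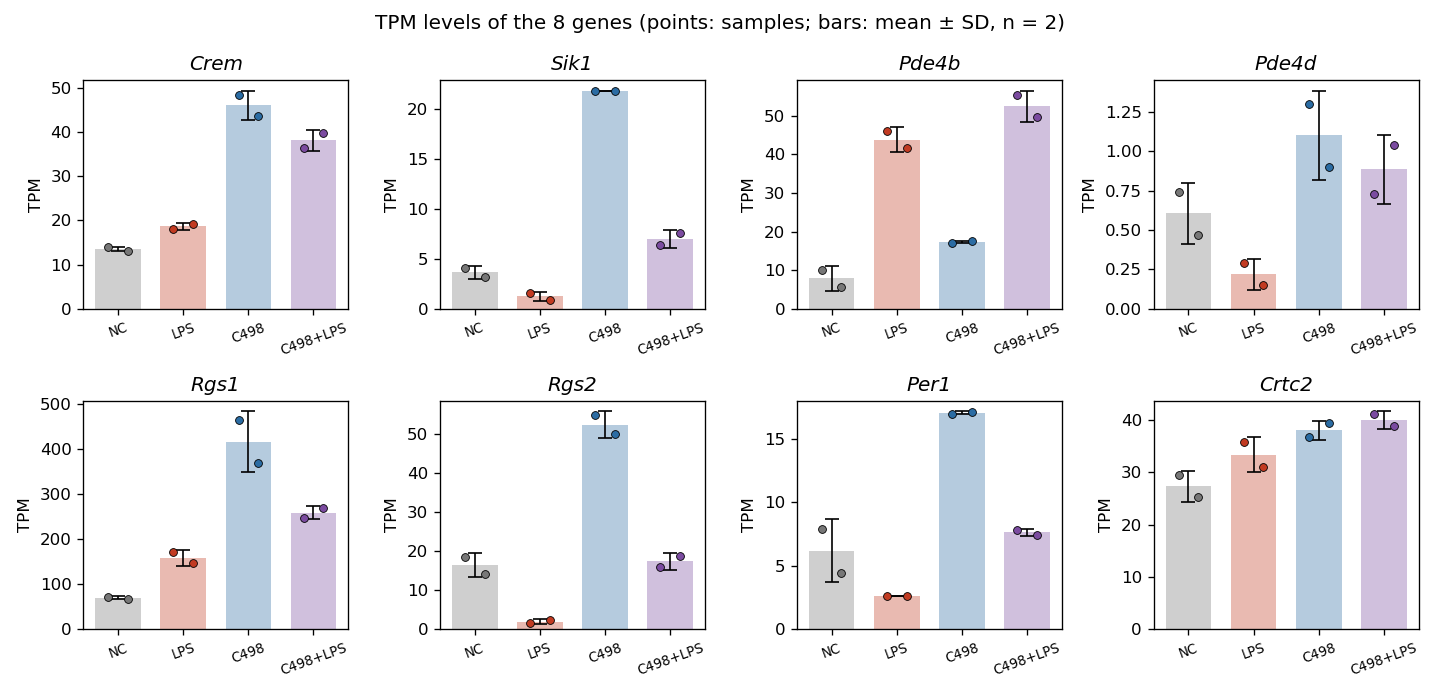
TPM (y axes, from 0, each gene on its own scale) of the 8 genes in NC, LPS, C498 and C498+LPS (x axes). Points are samples and bars are mean ± SD (n = 2). Sik1, Rgs2 and Per1 are highest in C498 and lowest in LPS, Crem and Rgs1 are highest in C498 and lowest in NC, and Pde4b is high in both groups with LPS.

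Rgs2 and Per1 shared this order of group means, C498, C498+LPS, NC and LPS, with Sik1 and with the untested Pde4d. The sequences upstream of the starts of Rgs2 and Per1 are shown to let the promoter letters be read beside this order. RefSeq windows, from 250 bases before to 50 bases after a gene start on GRCm38.p6, were at hand for 4 of the 8 genes (Rgs2, Per1, Pde4b and Pde4d), in 8 windows, since a gene can have several starts. None of the 8 windows holds the full cAMP response element TGACGTCA, which 1.79% of all 32851 windows hold on either strand. Its short form TGACG, or CGTCA on the other strand, is in 20.8% of all windows, those with the full element included. The upstream 250 bases are printed 5′ to 3′ in the direction of the gene, in lower case with each short form in capitals. For Rgs2 they lie at chr1:144004150-144004399 on the minus strand, with short forms whose first bases are at -185 and -67 from the start. For Per1 they lie on the plus strand at chr11:69098699-69098948 and, for a second start, at chr11:69099902-69100151, with short forms at -246 and -132 from these starts. The E-box CACGTG, the motif of clock factors, is in 7.15% of all windows and in the first Per1 window, at -166 and in lower case.
Rgs2: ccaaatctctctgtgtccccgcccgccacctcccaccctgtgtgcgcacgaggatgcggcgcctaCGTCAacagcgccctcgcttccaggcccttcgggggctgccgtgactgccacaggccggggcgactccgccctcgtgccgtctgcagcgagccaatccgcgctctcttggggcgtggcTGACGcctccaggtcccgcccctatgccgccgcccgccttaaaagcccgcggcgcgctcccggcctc
Per1, first start: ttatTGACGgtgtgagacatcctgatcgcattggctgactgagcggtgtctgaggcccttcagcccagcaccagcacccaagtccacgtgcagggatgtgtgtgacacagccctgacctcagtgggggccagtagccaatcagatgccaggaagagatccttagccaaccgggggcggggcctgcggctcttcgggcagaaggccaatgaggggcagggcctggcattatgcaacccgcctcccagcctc
Per1, second start: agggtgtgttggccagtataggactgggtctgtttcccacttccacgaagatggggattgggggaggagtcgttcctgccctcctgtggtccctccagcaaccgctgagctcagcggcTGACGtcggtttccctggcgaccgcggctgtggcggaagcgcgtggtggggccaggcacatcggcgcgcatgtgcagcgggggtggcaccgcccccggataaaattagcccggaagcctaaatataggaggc
Pde4b has a short form at -34 from 1 of its 4 starts. The Pde4d window has none, though its group means had the order of Rgs2 and Per1. A match of letters is a description and not a site.

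The question of C498 vs NC was what the compound does to these genes without LPS. It raised 6 of the 7 tested genes: Rgs1, Sik1, Crem, Rgs2, Per1 and Pde4b. Over all tested genes, 5.64% were called higher and 1.36% lower. The log2 change was 2.54 for Rgs1 (standard error 0.135, adjusted p = 0.000113), 2.30 for Sik1 (standard error 0.212, adjusted p = 0.000899), 1.69 for Crem (standard error 0.117, adjusted p = 0.000309) and 1.62 for Rgs2 (standard error 0.204, adjusted p = 0.00345). It was 1.37 for Per1 (standard error 0.239, adjusted p = 0.0117) and 1.10 for Pde4b (standard error 0.232, adjusted p = 0.0225). The median over the 7 genes was 1.62, over all tested genes 0.014, and over the 4 fibroblast markers 1.99. That of the fibroblast markers was 1.97 in C498+LPS vs LPS, where 3 of the 4 were called higher. Without C498 replicate 1 the count was 3, as Pde4b (adjusted p = 0.129), Rgs2 (adjusted p = 0.0541) and Per1 (adjusted p = 0.0931) lost their calls. Per1 also lost it without C498 replicate 2 (adjusted p = 0.0891) and in a fit of both groups alone (adjusted p = 0.0898), and Pde4b lost it in 10 of 17 alternatives, with an adjusted p from 0.00303 to 0.135 and a log2 change of 0.72 without NC replicate 2, against 1.48 without NC replicate 1.

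In LPS vs NC, which asks how the endotoxin alone moves these genes, the genes split. Pde4b and Rgs1 rose, and Rgs2 and Sik1 fell. Over all tested genes, 5.55% were called higher and 6.68% lower. The log2 change was 2.39 for Pde4b (standard error 0.232, adjusted p = 0.000495), 1.16 for Rgs1 (standard error 0.135, adjusted p = 0.00108), -2.55 for Rgs2 (standard error 0.204, adjusted p = 0.000191) and -1.06 for Sik1 (standard error 0.212, adjusted p = 0.00956). Per1 was at -0.95 (95% interval -1.52 to -0.39, adjusted p = 0.0226) and Crem at 0.43 (95% interval 0.16 to 0.71, adjusted p = 0.03), past the p threshold and short of a fitted 2-fold change. By the ratio of mean TPM, Per1 was 2.38-fold lower in LPS than in NC. Crtc2 was at 0.28 with an interval from -0.02 to 0.58. The call of Sik1 ended after centring samples on their median gene (-0.90), with quantile normalization (-0.82), in a fit of NC and LPS alone (adjusted p = 0.0609), without NC replicate 1 (-0.92) and without LPS replicate 2 (adjusted p = 0.0656). Per1 was called without NC replicate 2 (-1.31, adjusted p = 0.00323), and its change was -0.60 without NC replicate 1.

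C498+LPS vs LPS asks what the compound does to cells that meet LPS. Rgs2, Sik1 and Per1 rose, where 5.39% of all tested genes were called higher and 2.18% lower. The log2 change was 2.63 for Rgs2 (standard error 0.204, adjusted p = 0.000653), 1.85 for Sik1 (standard error 0.212, adjusted p = 0.00207) and 1.26 for Per1 (standard error 0.239, adjusted p = 0.0132). Crem, at 0.99 (standard error 0.117, adjusted p = 0.00231), and Rgs1, at 0.70 (standard error 0.135, adjusted p = 0.0141), passed the p threshold and not the fold. Pde4b was at 0.25, with a 95% interval from -0.29 to 0.80, and Crtc2 at 0.26, with an interval from -0.04 to 0.56. Crem crossed the fold threshold with a pseudocount of 0.1 (1.03) and without LPS replicate 2 or C498+LPS replicate 1, and Per1 lost its call without any 1 of the 4 libraries compared (adjusted p from 0.0709 to 0.0896, log2 change from 1.23 to 1.30).

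C498+LPS vs C498 gives the response to LPS once C498 is present. Pde4b rose, and Rgs2, Sik1 and Per1 fell, where 2.52% of all tested genes were called higher and 3.13% lower. The log2 change was 1.54 for Pde4b (standard error 0.232, adjusted p = 0.00653), -1.54 for Rgs2 (standard error 0.204, adjusted p = 0.00403), -1.52 for Sik1 (standard error 0.212, adjusted p = 0.00484) and -1.07 for Per1 (standard error 0.239, adjusted p = 0.0261). Rgs1, at -0.68 (standard error 0.135, adjusted p = 0.018), was lower by less than 2-fold, while Crem was at -0.27 (95% interval -0.54 to 0.01) and Crtc2 at 0.07 (95% interval -0.23 to 0.37). The call of Per1 ended in 9 alternatives: after centring (-0.85), with quantile normalization (-0.86), with no filter on low values (adjusted p = 0.0717), and without any 1 library of LPS, C498 or C498+LPS (adjusted p from 0.0613 to 0.153). Limma called 0 of the 7 genes without C498 replicate 1, though 5 had an unadjusted p under 0.05, and it called 1 without C498 replicate 2 and 2 without C498+LPS replicate 1. Their log2 changes moved little when a library was left out, from -1.63 to -1.41 for Sik1, -1.66 to -1.42 for Rgs2, -1.10 to -1.03 for Per1 and 1.47 to 1.62 for Pde4b.

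**Figure D3:**
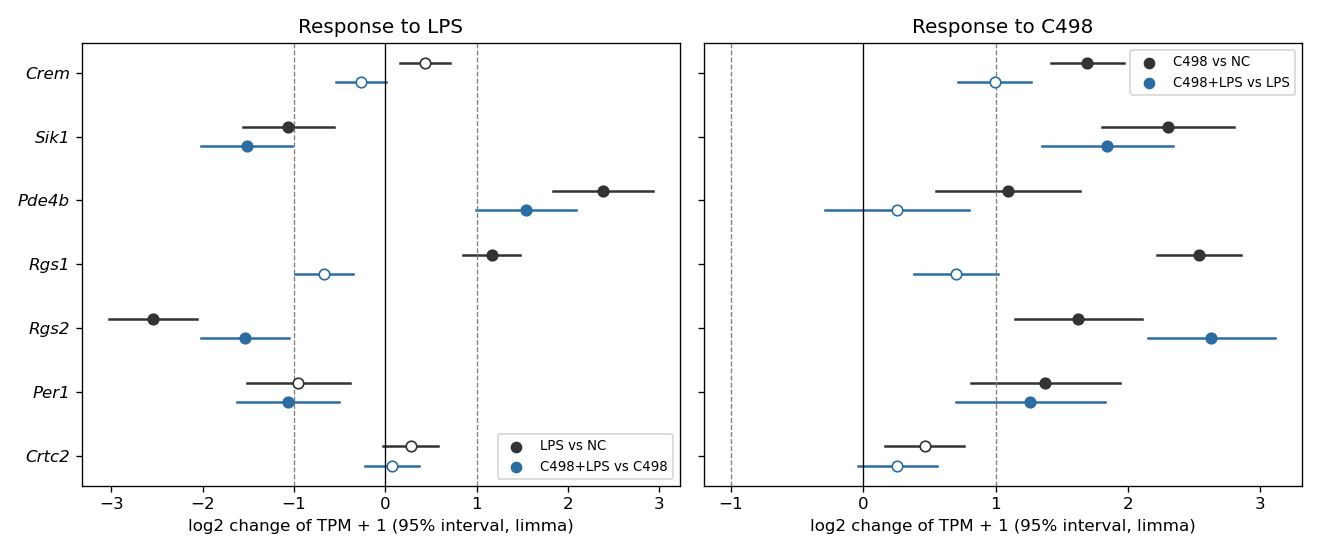
Fitted log2 change of TPM + 1 (x axes) with its 95% interval for the 7 tested genes (y axis), on the left for LPS without C498 (black) and with it (blue), on the right for C498 without LPS (black) and with it (blue). Filled points were called and open points were not, and dashed lines mark 2-fold. Rgs1 lies at 1.16 for LPS vs NC and at -0.68 for C498+LPS vs C498.

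Whether the response to LPS differed between cells with and without C498 was tested by the interaction in the same fit. It was called for Rgs1 alone among the 7 genes, at -1.84 (standard error 0.191, adjusted p = 0.019), where 0.394% of all tested genes were called lower and 0.0738% higher. LPS thus went with a higher Rgs1 level in cells without C498 and with a lower one in cells with it. The call was lost in several settings, as its adjusted p ran from 0.0535 to 0.102 without NC replicate 2, either LPS replicate, C498 replicate 1 or either C498+LPS replicate, and it was 0.0604 with no filter on low values and 0.0677 without a variance trend. For the others the interaction was 1.01 for Rgs2 (95% interval 0.33 to 1.69, adjusted p = 0.276), -0.84 for Pde4b (95% interval -1.61 to -0.07, adjusted p = 0.408), -0.70 for Crem (95% interval -1.09 to -0.31, adjusted p = 0.174) and -0.46 for Sik1 (95% interval -1.16 to 0.25, adjusted p = 0.64). That of Pde4b turned on the NC library kept, as it was called without NC replicate 1 (-1.22, adjusted p = 0.0482) and was -0.46 (adjusted p = 0.334) without NC replicate 2. The interaction was -0.11 for Per1 (95% interval -0.91 to 0.68) and -0.21 for Crtc2 (95% interval -0.63 to 0.22).

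The other genes of the pathway were taken from 9 lists drawn up by role, 97 symbols of which 79 could be tested. The lists were chosen with earlier results of these data known. Beside 5.64% of all tested genes called higher and 1.36% lower in C498 vs NC, limma called 0 of 10 receptors and G proteins (4 at an unadjusted p under 0.05), 0 of 4 adenylyl cyclases (2), 0 of 8 genes of PKA and Epac (3), 0 of 6 genes of the SIK family, its kinase Stk11 and class IIa histone deacetylases (1), and 0 of 9 other phosphodiesterases (1). Of 9 CREB factors and coactivators, limma called 1 higher and 0 lower (6 at an unadjusted p under 0.05). Their median log2 change was 0.58, beside 0.0145 over all tested genes. The 1 called was the stress-induced Atf3, from 227 and 225 TPM in NC to 648 and 569 TPM in C498 (log2 change 1.42, adjusted p = 0.000241). Of 7 other RGS genes (5 at an unadjusted p under 0.05), Rgs16 rose (log2 change 1.39, adjusted p = 0.0147) and Rgs14 fell (log2 change -1.02, adjusted p = 0.00264).

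Known CREB targets outside the 8 genes had the highest share of calls among the lists with C498. As the genes of this list were chosen with earlier results of these data known, the share is a description and not a test. Of 17 tested, 12 rose and 0 fell with C498 alone, with a median log2 change of 2.55, where 5.64% of all tested genes were called higher and 1.36% lower. The lower macrophage and higher fibroblast sums with C498 move with this list too, and their part was not tested. In C498+LPS vs LPS again 12 rose and 0 fell, with a median of 2.23 beside 0.0065 over all tested genes, of which 5.39% were called higher. In LPS vs NC 3 of the 17 rose (Junb, Thbs1 and Gem) and 2 fell (Fos and Vegfa), where 5.55% of all tested genes were called higher and 6.68% lower. Dusp1, a phosphatase of MAP kinases, was at 17.0 and 14.7 TPM in NC and at 496 and 435 TPM in C498, 29.4-fold higher (log2 change 4.79, adjusted p = 1.08e-05). Gem, a small GTPase, went from 1.38 and 0.93 TPM to 46.5 and 39.6 TPM (log2 change 4.36, adjusted p = 3.31e-05). The angiogenic factor Vegfa went from 24.3 and 17.2 TPM to 145 and 144 TPM (log2 change 2.76, adjusted p = 0.000149). Fos, a subunit of the transcription factor AP-1, followed the order of Rgs2, at 15.9 and 14.3 TPM in NC, 1.89 and 2.27 TPM in LPS, 76.3 and 80.3 TPM in C498, and 18.1 and 20.5 TPM in C498+LPS. Many of these targets also answer to other signals, MAP kinase and stress pathways among them.

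The clock list, in which Per1 would stand, had 3 of 9 tested genes called higher and 0 lower in C498 vs NC, against 5.64% and 1.36% of all tested genes. Nr1d2, a nuclear receptor that represses clock genes, was at 5.08 and 3.08 TPM in NC and at 13.2 and 13.8 TPM in C498 (log2 change 1.54, adjusted p = 0.01). Bhlhe40, another repressor, was at 93.2 and 71.9 TPM in NC and at 194 and 184 TPM in C498 (log2 change 1.20, adjusted p = 0.00222). The third was Ciart (log2 change 1.24, adjusted p = 0.031), named after its value was seen because the count is small. In C498+LPS vs LPS 3 rose (Nr1d2, Bhlhe40 and Tef) and 0 fell, against 5.39% and 2.18%.

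In LPS vs NC, the receptors showed the most calls among the upstream lists, 2 higher and 2 lower of 10. The adenosine receptor gene Adora2a rose from 14.1 and 12.4 TPM to 130 and 99.5 TPM (log2 change 3.02, adjusted p = 3.32e-05), and Adora2b rose 3.94-fold. The prostaglandin E receptor genes fell, Ptger4 from 12.3 and 9.21 TPM to 2.36 and 2.72 TPM (log2 change -1.72, adjusted p = 0.00128) and Ptger2 by a ratio of 0.354. All of these receptors act through stimulatory G proteins. In C498+LPS vs LPS, Adora2a was lower (log2 change -1.04, adjusted p = 0.00657) and Ptger4 higher (log2 change 1.12, adjusted p = 0.012), in a comparison that shares the LPS samples. The prostacyclin receptor gene Ptgir, named because the count is small, was also lower (log2 change -1.06, adjusted p = 0.00947), and in LPS vs NC it was at -0.69 (adjusted p = 0.0269). Further down the pathway single genes were called in LPS vs NC, where 5.55% of all tested genes were called higher and 6.68% lower. None of 4 adenylyl cyclases (0 at an unadjusted p under 0.05 in limma) and none of 9 CREB factors (2) was called. Lower were 1 of 8 genes of PKA and Epac (Prkar1b), 1 of 6 of the SIK list (Hdac5, log2 change -1.99, adjusted p = 0.000109), 1 of 7 other RGS genes (Rgs18) and 2 of 9 clock genes (Dbp and Tef). Of 9 other phosphodiesterases Pde7b fell (log2 change -1.59, adjusted p = 0.00869) and Pde10a rose (log2 change 1.20, adjusted p = 0.0459). In C498+LPS vs LPS, where 5.39% of all tested genes were called higher and 2.18% lower, limma called 0 genes of PKA and Epac (1 at an unadjusted p under 0.05), CREB factors (2), the SIK list (1) and other phosphodiesterases (1). Of the adenylyl cyclases, Adcy6 rose (log2 change 1.25, adjusted p = 0.0388) and Adcy7 fell (log2 change -1.10, adjusted p = 0.0242) in that comparison. Over all 9 lists, C498+LPS vs C498 had 3 genes higher and 8 lower of 79, where 2.52% of all tested genes were called higher and 3.13% lower. The interaction was called for 2, both lower where 0.394% of all tested genes were, Dusp1 (-1.54, adjusted p = 0.031) and Gem (-2.16, adjusted p = 0.0213).

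**Figure D4:**
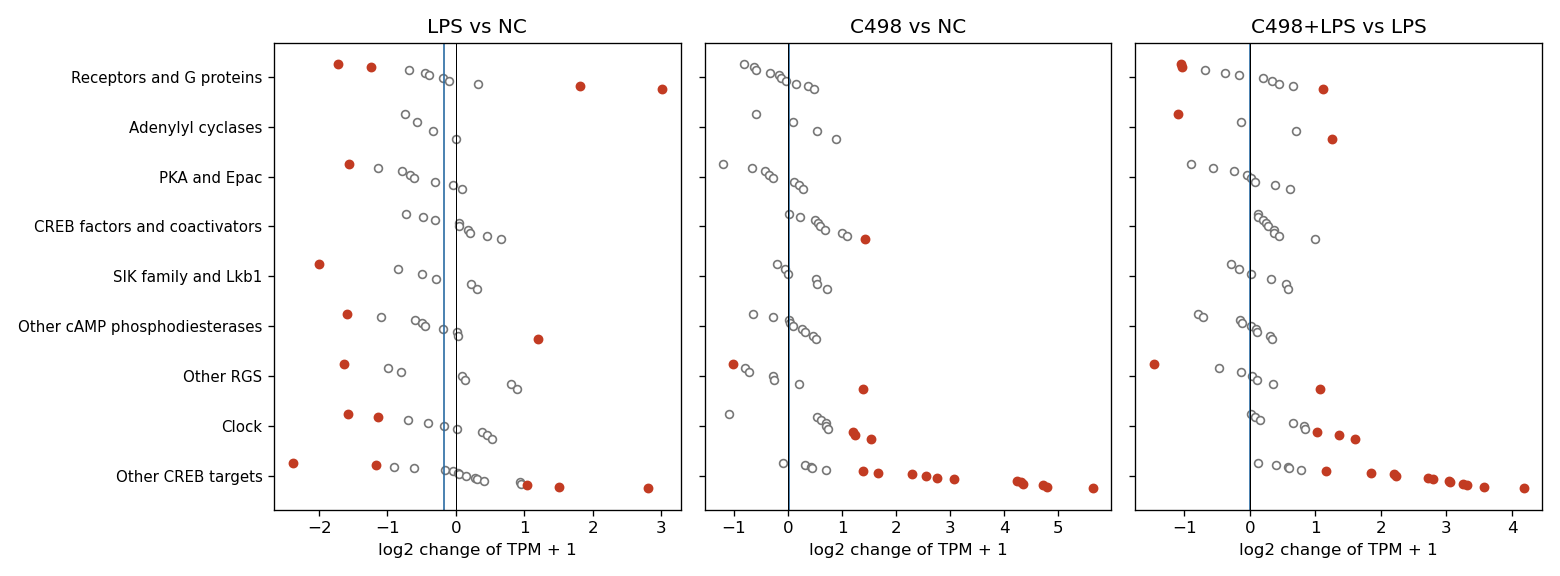
Fitted log2 change of TPM + 1 (x axes) of the tested genes of 9 lists of the cAMP pathway (rows) in LPS vs NC, C498 vs NC and C498+LPS vs LPS. Each point is a gene, red where called and open where not, and the blue line is the median of all tested genes. With C498, red points gather in the list of other CREB targets, 12 of 17 in each of both comparisons. The lists were chosen with earlier results of these data known.

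The pattern of each gene over the 8 samples was set against the 8867 genes with a symbol and a mean TPM of at least 5, by Pearson's r of log2(TPM + 1), given as a description since the 8 points form 4 groups. Among the nearest genes were Ifrd1 (r of 0.991) and Sertad1 (0.99) for Crem, Tcp11l2 (0.993) and Mef2d (0.992) for Sik1, and Irgm1 (0.996) and Dnaja2 (0.995) for Pde4b. They were Osm (0.985) for Rgs1, Lmna (0.994) and H1f2 (0.993) for Rgs2, and Rassf8 (0.997) and Gm42793 (0.992) for Per1. For Crtc2 it was Psmd12 (0.99), and for Pde4d they were Tnfrsf23 (0.989) and Copb1 (0.979). Between 20 and 140 genes reached an r of 0.95 with each gene, so such a match is common here. Among the 8 genes themselves, r was highest for Sik1 with Per1 (0.976) and for Crem with Rgs1 (0.959), and it was below 0 for Pde4b with Sik1, Pde4d, Rgs2 and Per1.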

How the data were processed

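RNA of the 8 samples was sequenced on an Illumina instrument. Per the study's methods, reads passed fastp, HISAT2 served as the aligner, StringTie as the assembler and RSEM for quantification. The table that the authors deposited gives TPM, rounded to 2 decimals, which keep no depth, and its columns of group means were not used. Versions, build and strand setting are not given in the sources used here. Gene positions are those of GENCODE M21 (GRCm38), matched by Ensembl identifier.

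Group means of log2(TPM + 1) were fitted with limma 3.58.1 in R 4.3.3 to all 8 samples with a variance trend, and p was adjusted by the Benjamini-Hochberg method over the 12189 genes whose mean TPM reached 1. The authors' thresholds (2-fold, adjusted p of at most 0.05) were kept, while their DESeq2 test needs counts. Steps were tested on simulated data. With 2 samples against 2, an exact two-sided permutation test cannot go below p = 0.333. The 8 genes and all lists were chosen with earlier results of these data known. Named from each list were at most 4 genes, those called in most comparisons with replicates that did not overlap, then by size of change, with genes behind counts of 5 or fewer added after their values were seen, and the 2 most alike genes for each of the 8, some of which are not reported here. Alternatives were other pseudocounts, filters, scalings and fits, a replicate block, and leaving out each sample.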

Additional observations from a re-analysis of the deposited data

Results flagged for a closer look

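Rgs1 stood out because its response to LPS differed between cells with and without C498. The difference of the log2 changes, tested as the interaction of C498 and LPS in limma, was -1.84 (adjusted p = 0.019). Without C498 its levels were higher in the 2 samples with LPS, and with C498 they were lower in the 2 samples with LPS, each time without overlap. Over the alternatives the difference ran from -2.01 to -1.67 and its adjusted p from 0.00901 to 0.102.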

How the results depend on the processing

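TPM levels hold no read depth, so the precision of low genes such as Pde4d is known only from 2 samples per group. No direction of the 7 tested genes changed in the 4 comparisons of groups under any alternative. The interaction of Per1, -0.11, was 0.011 with a pseudocount of 0.1 and ran from -0.47 to 0.25 when a library was left out. Without a fold threshold, 5 genes were called in C498+LPS vs LPS in place of 3, while calls over all tested genes rose from 923 (7.57%) to 2045 (16.8%). For the interaction the count of 1 was 0 with no filter on low values and 0 without a variance trend (limma, 4 genes at an unadjusted p under 0.05 in either), and 0 to 2 when a library was left out. Calls over all tested genes fell in these settings too, from 57 to 18 and 12 for the interaction, and without C498 replicate 1 from 853 to 345 in C498 vs NC and from 688 to 366 in C498+LPS vs C498. Leaving out a library, so that a group kept 1 sample, changed the count of called genes in each of the 4 comparisons. The calls over all tested genes changed with it. The log2 change ran from 0.72 to 1.48 for Pde4b in C498 vs NC, beside 1.10 with all libraries. That of Per1 in LPS vs NC ran from -1.31 to -0.60, beside -0.95. Centring moved the median of all tested genes by 0.17 in LPS vs NC, by 0.21 in C498+LPS vs C498 and by -0.12 in C498 vs NC, and then ended the calls of Sik1 (-0.90), Per1 (-0.85) and Pde4b (0.98) in these comparisons. Samples share only a replicate number between groups, and deviations of same-numbered samples had an r of 0.04 to 0.168 across genes. With the replicate block the counts were 4, 6, 3, 4 and 1 in LPS vs NC, C498 vs NC, C498+LPS vs LPS, C498+LPS vs C498 and the interaction, the same as without it, and over all tested genes the block took the interaction calls from 57 to 84. Of the recomputed results of the 7 tested genes, 528 kept their call or lack of one, 46 lost a call, 12 gained one and 2 turned in direction. Some calls changed at the same log2 change, through the adjusted p or the removed fold threshold. Of the log2 changes of the untested Pde4d, 30 moved by less than the spread between replicates and 4 by more. Those 4 came with the pseudocount of 0.1, such as -1.15 in place of -0.39 in LPS vs NC. The cause of the other shifts was not tested.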
